A study of Mus musculus with 30 samples.

Results

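Aminoacyl-tRNA synthetases attach each amino acid to its own transfer RNA, and 36 of their genes were followed here in mouse muscle. They were taken by name from the 47643 rows of the deposited expression table. Of these, 20 encode the cytosolic enzymes and 16, with symbols that end in 2, the mitochondrial enzymes. The rule itself uses no measured value.

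RNA of the tibialis anterior, a shin muscle, from male C57BL/6J mice was sequenced in 30 libraries that form 8 groups and 4 experiments. Mice given dexamethasone, a synthetic glucocorticoid, were compared with their own controls (n = 4 each), and so were mice with LLC cancer (n = 4 each), an abbreviation that the labels leave unexplained. Old mice, aged 24 months, were compared with young mice, aged 6 months (n = 3 each). Muscle given siRNAs to Cyr61, the gene of a matricellular protein, was compared with muscle given NT siRNAs (n = 4 each), a term also left unexplained. Doses, durations and the ages of the other 6 groups were not given in the sources used here. The labels call the libraries biological replicates, and p-values measure the spread between these libraries.

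Cells translate nuclear-encoded messages in the cytosol and the few mitochondrially encoded messages inside the organelle, and each compartment needs its own charged transfer RNAs. All synthetases are encoded in the nucleus. Most amino acids have a separate gene for each compartment, while Gars (glycine) and Kars (lysine) each give rise to both forms. Eprs joins the glutamate and proline activities in a single protein, and Farsa and Farsb encode the subunits of the cytosolic phenylalanine enzyme. Several cytosolic members are known targets of ATF4, the transcription factor that answers amino-acid shortage.

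Levels are given as TPM, transcript abundance corrected for gene length and scaled to the library's total. The rows of genes encoded in mitochondrial DNA took 37.9 ± 3.2% of the deposited TPM in dexamethasone-treated muscle and 48.7 ± 2.1% in its control (SD, n = 4 each), without overlap. Every level below was therefore rescaled to a total of 1000000 per library without those rows. The libraries held 27412309 to 54961976 recovered reads, and their members ranged from 83 reads for Pars2 to 155326 reads for Lars2 in a library. All 36 members passed the filter on low values in all 4 comparisons. The muscle-fibre markers Ckm, Acta1, Tnnt3, Myh4, Myh1, Tnni2 and Mylpf summed to 145349 TPM or more in each library.

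Promoter sequence bears on the ATF4 response, so the 300 bases around each annotated start (250 before, 50 after) were read from RefSeq, build GRCm38.p6. The table held 27 of the 36 members, 13 cytosolic and 14 mitochondrial. The motif TGATGNAA, the composite element that ATF4 binds with a C/EBP partner, was searched on both strands. It was found in 5 cytosolic members, Aars, Gars, Iars, Tars and Yars, and in none of the 14 mitochondrial members with a promoter in the table. It lay in 3.97% of all 32851 promoters in the table. All 5 are among the 8 known ATF4 targets with a promoter there, and none of the 5 other cytosolic members with a promoter held it. A site of each of the 5 members is shown because the motif lay in cytosolic members alone. Each is read 5′ to 3′ on the gene's strand, with the motif or its reverse complement in capitals. Aars held 2 sites, which began at -112 and 9 bases from the annotated start, and the second is shown. The others shown began at -30 (Gars), 7 (Iars), -15 (Tars) and 3 (Yars), where positive values lie after the start. A match describes letters, not binding.
Aars, chr8:111033851-111033858, plus strand: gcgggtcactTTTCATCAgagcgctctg
Gars, chr6:55037971-55037978, plus strand: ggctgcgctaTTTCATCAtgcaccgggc
Iars, chr13:49682137-49682144, plus strand: actgtcagtaTTGCATCAcctccagacg
Tars, chr15:11399666-11399673, minus strand: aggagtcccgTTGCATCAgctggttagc
Yars, chr4:129189906-129189913, plus strand: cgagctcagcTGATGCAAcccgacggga
The other sites shown carry the motif on the strand opposite to the gene, unlike the site in Yars, which has it on the gene's own strand.

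Cytosolic synthetases were the more abundant class. The median over the 20 cytosolic members was 48.9 TPM, taking for each the mean of its 8 group means, against 12.4 TPM over the 15 mitochondrial members without Lars2, which is treated on its own below. Nars (asparagine) at 138.3 TPM and Kars at 137.2 TPM led the cytosolic class. The libraries of these 2 members overlapped in 7 of 8 groups. Gars at 66.0 TPM came next, below Kars without overlap in 8 of 8 groups. Eprs followed at 65.2 TPM and Farsb at 64.5 TPM. Gars and Eprs overlapped in 7 of 8 groups. The order of Eprs and Farsb was not fixed. With NT siRNA, Eprs (59.77 to 82.7 TPM) lay above Farsb (55.39 to 59.43 TPM) without overlap. In the dexamethasone control, Eprs (55.75 to 63.1 TPM) lay below Farsb (63.35 to 74.01 TPM) without overlap. Farsa, whose product pairs with that of Farsb, was the lowest cytosolic member at 15.2 TPM.

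Among mitochondrial members other than Lars2, Fars2 (phenylalanine) was highest at 37.6 TPM, followed by Iars2 (isoleucine) at 29.7 TPM and Cars2 (cysteine) at 26.6 TPM. Mars2 (methionine, 3.62 TPM), Wars2 (tryptophan, 3.79 TPM), Pars2 (proline, 4.23 TPM) and Ears2 (glutamate, 4.68 TPM) were lowest. Vars2 (valine) lay below Sars2 (serine) without overlap in 7 of 8 groups, at 7.69 against 11.3 TPM. The gene length behind a TPM value, as recovered from its steps, equalled the summed exon bases of the GENCODE M21 annotation for Gars and Vars and was shorter for Kars and Lars2, so levels of different genes also depend on the lengths used. Levels were also divided instead by the length of the transcript with the longest coding sequence, taking the shortest such transcript in a tie. On that length-corrected scale the class medians were 67.5 cytosolic and 19.99 mitochondrial without Lars2.

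**Figure D1:**
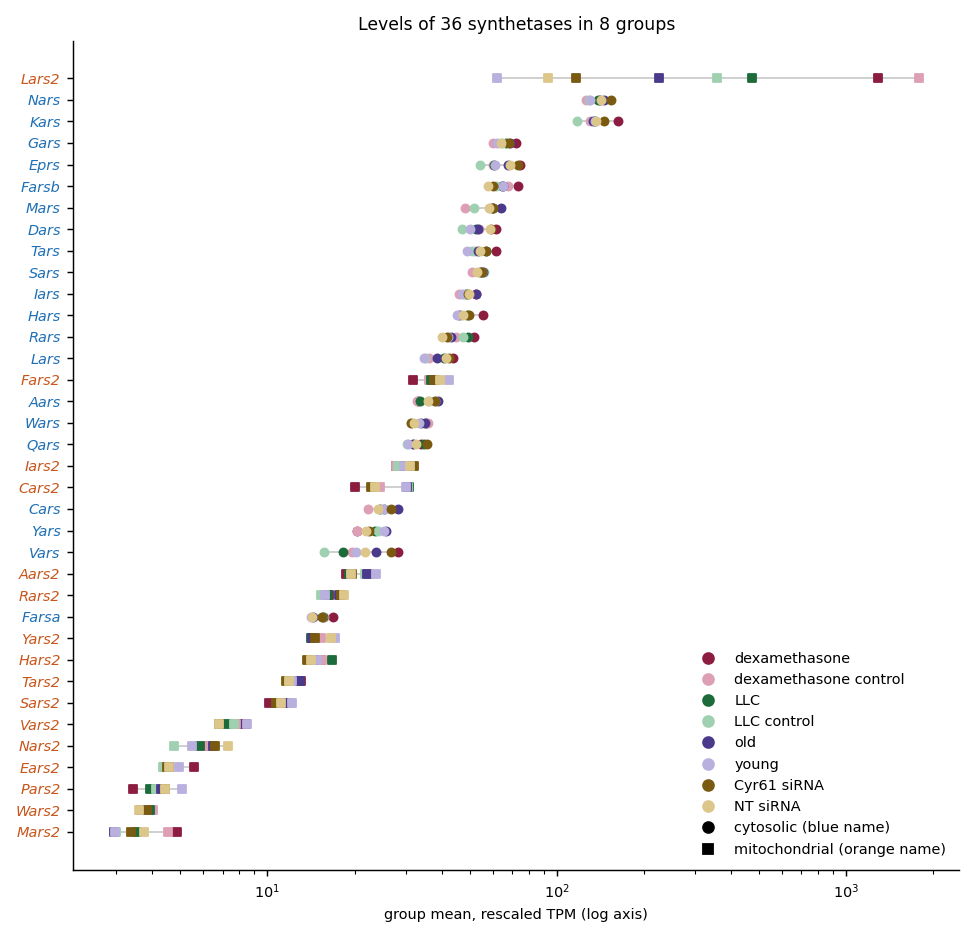
Group means of the 36 synthetases in rescaled TPM on a log axis, ordered by their mean over 8 groups; circles with blue names are cytosolic, squares with orange names mitochondrial, and colours mark the groups. Most members keep their level across groups, with a median ratio of highest to lowest group of 1.26 in the cytosolic class, while Lars2 spans 62.1 to 1788 TPM.

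Where an amino acid has a gene for each compartment, the cytosolic one was higher in 13 of 15 pairs, in all 30 libraries. Eprs was the cytosolic gene of both the glutamate and the proline pair. Phenylalanine was not among the pairs, since its cytosolic enzyme has a gene for each subunit. Fars2 at 37.6 TPM lay between Farsa (15.2 TPM) and Farsb (64.5 TPM). The ratio of cytosolic to mitochondrial TPM was 22.6 for asparagine (Nars over Nars2), 15.9 for methionine (Mars over Mars2) and 8.84 for tryptophan (Wars over Wars2). It was 1.66 for isoleucine (Iars over Iars2) and 1.52 for tyrosine (Yars over Yars2). The cysteine pair stood near parity, since Cars was above Cars2 in 11 of 30 libraries and the ratio was 0.945. Leucine was the exception, with Lars above Lars2 in 1 of 30 libraries and a ratio of 0.0710. Counted per transcript length, the cysteine ratio was 1.40 and the threonine ratio (Tars over Tars2) was 1.00, against 4.39 in TPM.

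Levels varied little within groups for all members but Lars2. The coefficient of variation among libraries of a group, as the median over groups, was between 4.25% for Nars and 12.5% for Vars in the cytosolic class, and between 5.34% and 14.4% in the mitochondrial class without Lars2. Between groups, the highest mean over the lowest had a median of 1.26 in the cytosolic class and 1.24 in the mitochondrial class without Lars2. Vars (valine) moved most among cytosolic members, with 28.3 TPM in dexamethasone-treated muscle and 15.7 TPM in LLC control muscle, which are from separate experiments, so experiment and group cannot be told apart.

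Lars2 (chr9:123366927-123462666, plus strand, mm10), which charges the mitochondrial leucine transfer RNA, stood apart from every other member. Its libraries held 453.4, 3260, 358.3 and 1077 TPM after dexamethasone and 2632, 86.2, 1888 and 2547 TPM in the dexamethasone control. LLC muscle held 54.8, 1225, 532.0 and 80.5 TPM, and its control 66.9, 1265, 51.0 and 49.2 TPM. High and low libraries occurred in both groups of each of these experiments.

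Old muscle held 76.4, 466.7 and 134.6 TPM of Lars2, and young muscle 67.4, 53.6 and 65.3 TPM, without overlap. Cyr61 siRNA muscle held 142.2, 95.4, 114.3 and 114.1 TPM, and NT siRNA muscle 41.6, 117.7, 96.4 and 116.6 TPM. The largest ratio between libraries of a group was 30.5 for Lars2, against 1.81 for the next member, Vars. Lars2 made up 15.6% to 93.7% of the summed mitochondrial TPM of a library. No comparison called it, with log2 changes of -0.24 (dexamethasone, adjusted p = 0.914), 0.93 (LLC, adjusted p = 0.678), 1.44 (old, adjusted p = 0.328) and 0.42 (Cyr61 siRNA, adjusted p = 1), all from limma.

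Of 8852 other rows that averaged 5 TPM or more and were above 0 in each library, Gm26917, a long noncoding RNA on chromosome 17 (39843013 to 39846341, plus strand, mm10), tracked Lars2 most closely. That row was picked after its values were seen. The SD of the log2 ratio to Lars2 over 30 libraries was 1.13 for Gm26917, against a median of 1.97 over those rows. Gm26917 measured 88.0, 645.0, 54.2 and 168.4 TPM after dexamethasone and 379.3, 14.0, 374.6 and 374.5 TPM in the dexamethasone control, so its libraries fell in nearly the same order as those of Lars2. The ratio of Lars2 to Gm26917 was 5.05 to 6.62 after dexamethasone and 5.04 to 6.94 in that control, but ranged from 3.46 to 72.4 over all libraries. Next to Gm26917 the RefSeq table places a ribosomal RNA pseudogene, and whether reads of that kind contribute to Lars2 was not tested. Values of the mitochondrial class are therefore given without Lars2 where this is stated.

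**Figure D2:**
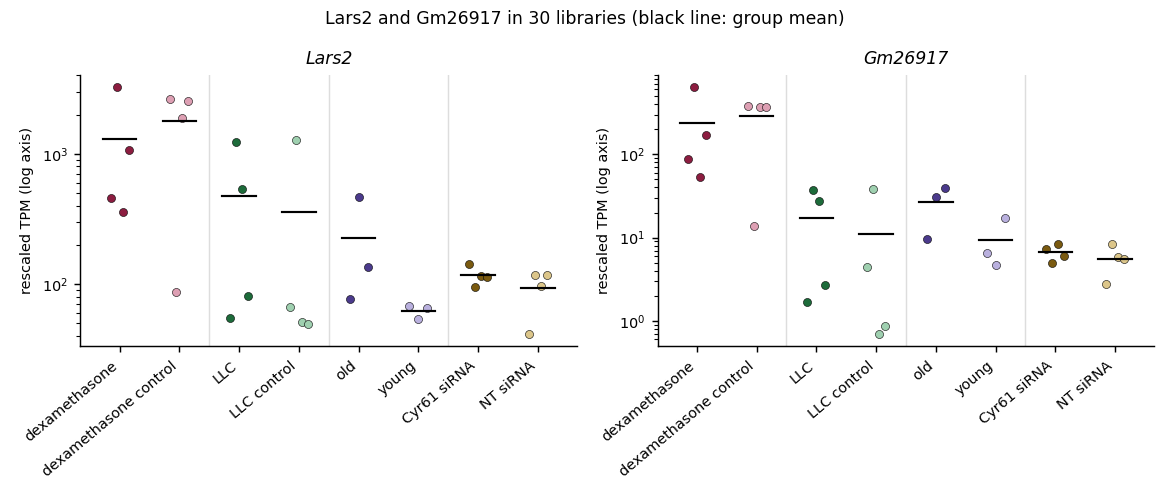
Lars2 (left) and Gm26917 (right) in rescaled TPM on log axes, with a point for each of 30 libraries in 8 groups and a black line for the group mean. Library dexamethasone control 2 lies at 86.2 TPM of Lars2 and 14.0 TPM of Gm26917, far below the other 3 libraries of its group in both.

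The first comparison asked what dexamethasone treatment did to the synthetases. Vars (chr17:35000987-35016322, plus strand, mm10), the cytosolic valine enzyme, rose and was the only member called. It measured 27.3, 34.6, 25.6 and 25.5 TPM in treated muscle, against 18.8, 17.5, 21.3 and 20.7 TPM in control muscle, so every treated library lay above every control library. The mean was 28.3 ± 4.29 TPM after dexamethasone and 19.6 ± 1.72 TPM in the control (SD, n = 4 each), a log2 change of 0.50 ± 0.12 (SE; limma with Benjamini-Hochberg adjustment, adjusted p = 0.0298). Of the 12961 genes in the fit, 8.53% were called, 5.56% higher (721) and 2.96% lower (384). That split was 4290 higher and 180 lower with TPM as deposited, and 562 higher and 634 lower with median-of-ratios scaling. The call on Vars did not hold without control library 1 (adjusted p = 0.0878), 2 (adjusted p = 0.101) or 4 (adjusted p = 0.0709), or with median-of-ratios scaling (log2 change 0.41, adjusted p = 0.0501).

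The genes that serve both compartments, Gars (chr6:55038007-55079500, plus strand, mm10) and Kars (chr8:111993443-112011323, minus strand, mm10), lay next to Vars by p. Gars measured 73.9, 73.9, 73.3 and 67.9 TPM after dexamethasone and 58.1, 58.5, 63.4 and 60.1 TPM in the control. Kars measured 181.4, 147.0, 169.9 and 152.8 TPM after dexamethasone and 126.2, 136.2, 138.5 and 119.6 TPM in the control. In both genes the groups did not overlap, yet neither passed the threshold: the log2 difference was 0.26 for Gars (adjusted p = 0.0715, limma) and 0.32 for Kars (adjusted p = 0.0737, limma). Groups did not overlap in 7 of 20 cytosolic members, all higher after dexamethasone: Eprs, Gars, Kars, Lars (leucine), Mars (methionine), Tars (threonine) and Vars. At an unadjusted p under 0.05 the same 7 members passed, where 24.1% of all genes did. Among all genes tested 17.5% did not overlap, 11.6% in the higher and 5.89% in the lower direction.

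Other cytosolic members sat closer to their controls. Nars measured 128.9, 148.2, 144.8 and 141.3 TPM after dexamethasone and 123.9, 134.1, 125.9 and 120.6 TPM in the control, with overlap. Sars (serine) measured 56.6, 54.8, 51.9 and 55.1 TPM after dexamethasone and 48.1, 53.2, 52.6 and 50.4 TPM in the control. The 4 treated libraries of Sars reached above all controls in 3 cases.

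Aars (alanine) measured 29.7, 36.3, 31.9 and 35.1 TPM after dexamethasone and 30.4, 34.1, 33.4 and 33.6 TPM in the control, a log2 difference of 0.01. Wars, the tryptophan enzyme that interferon gamma induces in many cells, measured 27.8, 41.7, 33.8 and 37.4 TPM after dexamethasone and 40.3, 32.8, 35.5 and 34.6 TPM in the control. Both genes overlapped widely. In the same libraries 9 of 10 listed interferon-gamma response genes were called lower, among them Iigp1 (5.504 ± 1.55 TPM after dexamethasone, 72.75 ± 51.8 TPM in the control; SD, n = 4 each), while the log2 difference of Wars was -0.04 (adjusted p = 0.8895, limma). Among the other ATF4-element members, Iars (isoleucine, adjusted p = 0.418), Tars (adjusted p = 0.126) and Yars (tyrosine, adjusted p = 0.995) were not called either.

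As a class, 19 of 20 cytosolic members had a log2 difference above 0 and the median was 0.17, or 0.44 with TPM as deposited and 0.07 with median-of-ratios scaling, where 68.4% of all genes tested lay above 0 with a median of 0.10. Set against the median gene instead of 0, 14 of 20 cytosolic and 1 of 16 mitochondrial members lay higher than it, a value that by construction splits all genes evenly. A like split, 17 of 20 cytosolic and 3 of 16 mitochondrial, stood in Cyr61 siRNA against NT siRNA, so it was not particular to dexamethasone. In LLC the counts were 10 of 20 and 7 of 16, and in old muscle 9 of 20 and 3 of 16. The 8 members of the multi-synthetase complex, a cytosolic assembly of Eprs, Iars, Lars, Mars, Qars, Rars, Kars and Dars products, were all above 0, with differences of 0.09 to 0.32 and none called. Of 3 genes for the complex's scaffold none was called. The median of the 12 ATF4-target members was 0.17, the same as that of the whole cytosolic class. These 12 are themselves part of the 20 cytosolic members, so the equal medians do not compare separate sets of genes.

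No mitochondrial member was called after dexamethasone, and 2 of 16, Cars2 and Ears2, had an unadjusted p under 0.05. With limma voom on recovered reads, again none was called. Cars2 measured 17.5, 22.4, 17.9 and 22.5 TPM after dexamethasone and 25.1, 24.4, 21.7 and 27.0 TPM in the control (log2 difference -0.28, unadjusted p = 0.0354, adjusted p = 0.171, limma). Ears2 measured 4.89, 5.80, 5.76 and 5.79 TPM after dexamethasone and 4.70, 4.23, 4.71 and 4.59 TPM in the control (log2 difference 0.24, adjusted p = 0.195, limma), without overlap. Sars2 measured 9.03, 11.3, 9.40 and 10.8 TPM after dexamethasone and 11.4, 12.1, 11.7 and 13.2 TPM in the control (log2 difference -0.24, adjusted p = 0.208, limma), also without overlap. Cars2 and Sars2 thus lay on the low side and Ears2 on the high side. The median over the 16 was -0.05, but 0.19 with TPM as deposited, and 6 of 16 lay above 0. With median-of-ratios scaling the adjusted p of Sars2 (0.0367), Aars2 (0.044) and Cars2 (0.0473) was under 0.05, all lower after dexamethasone.

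Of 12 genes listed as partners of mitochondrial translation, 1 was called and 11 had differences below 0. The called gene, Qrsl1, encodes a subunit of the amidotransferase that makes glutaminyl-tRNA in mitochondria, and it fell to 17.5 ± 1.79 TPM, against 23.4 ± 1.60 TPM in the control (SD, n = 4 each; adjusted p = 0.0404, limma). Tarsl2, a second cytosolic threonine synthetase outside the 36, fell to 50.5 ± 1.53 TPM, against 62.3 ± 2.19 TPM in the control (adjusted p = 0.0429, limma). Tars itself averaged 61.5 TPM after dexamethasone and 52.0 TPM in the control, and was not called.

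Amino-acid response genes were called higher in 5 of 26 tested. Slc7a5, which encodes a large neutral amino-acid transporter, averaged 7.59 ± 1.39 TPM after dexamethasone and 2.77 ± 0.556 TPM in the control (SD, n = 4 each; adjusted p = 0.00186, limma). Eif4ebp1, a translation repressor, averaged 194.6 ± 16.8 TPM after dexamethasone and 93.6 ± 6.80 TPM in the control (adjusted p = 0.000307, limma), and Phgdh, the first enzyme of serine synthesis, 6.39 ± 1.60 TPM after dexamethasone and 2.88 ± 0.266 TPM in the control (adjusted p = 0.00667, limma). Of the cytosolic elongation factors none of 6 was called. Macrophage markers moved in the same libraries: 7 of 8 listed markers were in the table, their sum ranged from 1433 to 3663 TPM after dexamethasone and from 394.6 to 731.9 TPM in the control, and 4 were called higher. Lymphocyte markers summed to 20.4 to 35.5 TPM after dexamethasone and 72.1 to 138.1 TPM in the control, with 2 of 2 tested called lower. Endothelial markers summed to 175.6 to 237.9 TPM after dexamethasone and 280.1 to 298.7 TPM in the control, with 1 of 4 called lower. Adipocyte markers summed to 18.9 to 23.5 TPM after dexamethasone and 4.83 to 13.9 TPM in the control, with 2 of 3 called higher. Satellite-cell markers summed to 6.425 to 8.28 TPM after dexamethasone and 5.41 to 6.92 TPM in the control, with 1 of 2 tested called higher. Neutrophil markers summed to 16.2 to 140.3 TPM after dexamethasone and 13.3 to 71.8 TPM in the control, with 2 of 3 tested called higher and 1 lower. The part of these cell types in the synthetase values was not tested. In whole muscle, fewer cells of a type and less RNA per cell cannot be told apart.

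**Figure D3:**
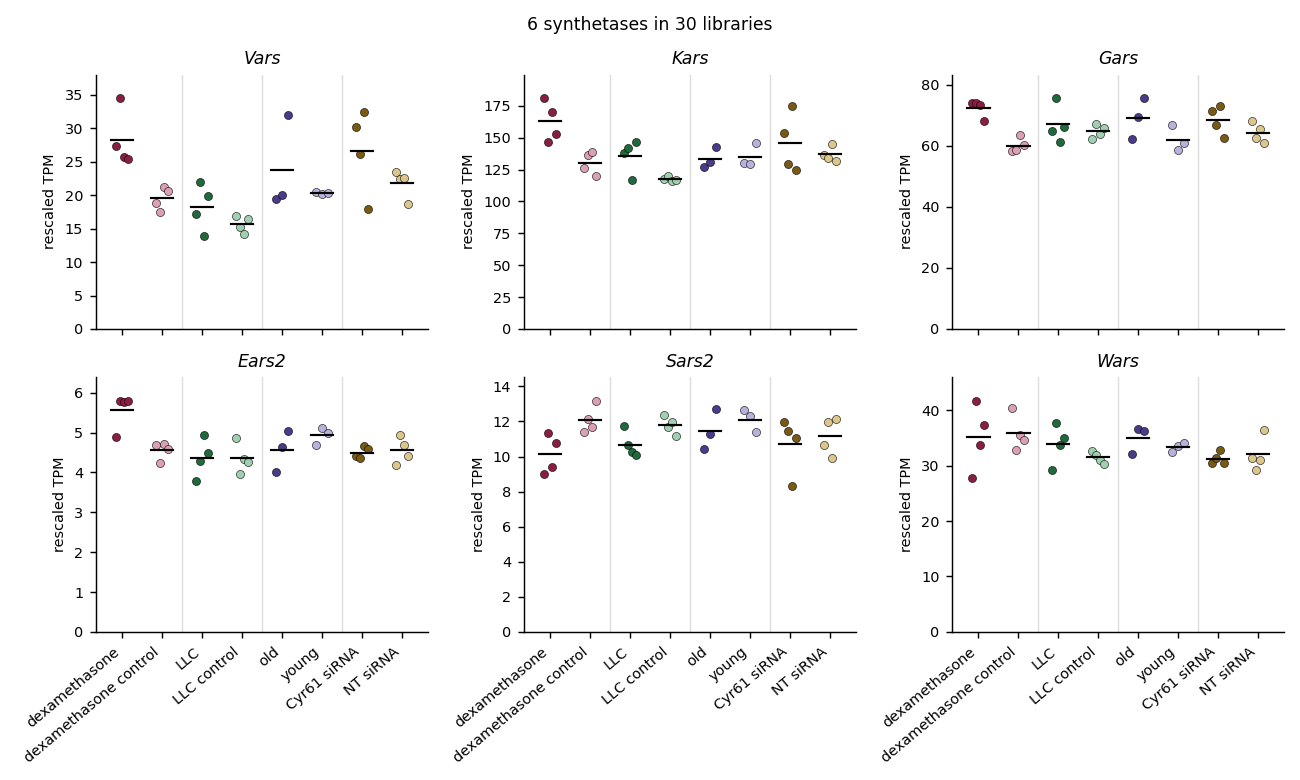
Rescaled TPM of Vars, Kars, Gars, Ears2, Sars2 and Wars, with a point for each of 30 libraries and a black line for the group mean. In Vars, Kars, Gars and Ears2 the 4 dexamethasone libraries lie above the 4 control libraries, in Sars2 below them, and in Wars they are mixed.

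The LLC comparison asked how the same genes stood in muscle of mice with LLC cancer. No member was called, where 4.55% of 12011 genes were (422 up, 124 down). That split was 32 higher and 96 lower with TPM as deposited, and 190 higher and 165 lower with median-of-ratios scaling. With voom on recovered reads the count of members was also 0. At an unadjusted p under 0.05, 4 cytosolic and 1 mitochondrial member passed, where 23.3% of all genes did. Lars was smallest in p, with 42.3, 42.6, 39.8 and 38.6 TPM in LLC muscle and 32.9, 37.2, 35.9 and 33.9 TPM in control muscle (log2 difference 0.22, adjusted p = 0.108, limma). Mars and Tars also did not overlap, at 60.3 ± 6.39 and 56.9 ± 3.02 TPM in LLC muscle and 51.6 ± 1.66 and 50.8 ± 2.61 TPM in the control (SD, n = 4 each). In the mitochondrial class, Nars2 did not overlap, with 5.85 ± 0.675 TPM in LLC muscle and 4.75 ± 0.308 TPM in the control (adjusted p = 0.150, limma). Without overlap stood 15.4% of all genes tested, 12.3% higher and 3.08% lower in LLC muscle.

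Kars in LLC muscle held 137.8, 142.0, 117.1 and 147.0 TPM, against 117.8, 119.6, 116.1 and 117.2 TPM in its control. The library LLC 3 alone fell among the controls, and it was also the library with 60.4% of deposited TPM in mitochondrially encoded genes. Gars held 64.8, 75.7, 61.3 and 66.2 TPM in LLC muscle and 62.3, 67.0, 63.8 and 65.9 TPM in the control. Nars held 138.2, 145.1, 138.8 and 132.1 TPM in LLC muscle and 126.4, 129.2, 134.2 and 127.6 TPM in the control. Gars and Nars overlapped between the groups.

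For Sars the LLC libraries held 52.9, 59.8, 52.4 and 52.2 TPM and the controls 60.5, 50.7, 55.8 and 57.7 TPM. Aars held 33.2, 37.5, 31.8 and 31.8 TPM in LLC muscle and 37.8, 34.4, 38.0 and 34.9 TPM in the control. Wars held 29.3, 37.7, 33.8 and 35.02 TPM in LLC muscle and 32.6, 31.9, 31.0 and 30.3 TPM in the control. All 3 overlapped, and the means were lower in LLC muscle for Aars and Sars and higher for Wars.

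Vars held 17.2, 21.97, 13.9 and 19.9 TPM in LLC muscle, against 16.9, 15.3, 14.2 and 16.4 TPM in the control, and the groups overlapped (log2 difference 0.19, adjusted p = 0.406, limma). The median log2 difference of the cytosolic class was 0.08, with 17 of 20 above 0, but -0.06 with TPM as deposited and 0.00 with median-of-ratios scaling. That of the mitochondrial class was 0.03, with 10 of 16 above 0, but -0.08 as deposited and -0.05 with median-of-ratios scaling. Over all genes tested the median was 0.07, and 64.6% lay above 0. Slc3a2, the partner chain of amino-acid transporters, and Cth, an enzyme of cysteine synthesis, were called higher. They were the only calls among 25 amino-acid response genes tested, where 14 lay below 0 and the median log2 difference was -0.10. The cytosolic elongation, scaffold and mitochondrial translation lists held no call. Red-cell sums were 1165 to 9217 TPM in LLC muscle and 662.6 to 946.3 TPM in the control, with 2 of 3 called higher. Lymphocyte sums were 30.03 to 68.72 TPM in LLC muscle and 80.63 to 119.9 TPM in the control, with 1 of 2 tested called lower. Endothelial sums were 144.6 to 195.9 TPM in LLC muscle and 137.9 to 168.3 TPM in the control, with 1 of 4 called higher. Neutrophil sums were 85.67 to 181.4 TPM in LLC muscle and 1.784 to 171.0 TPM in the control. Muscle-fibre sums were 158398 to 175558 TPM in LLC muscle and 180955 to 192230 TPM in the control. These last 2 and the other marker lists held no call. The part of these cell types in the synthetase values was not tested.

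The age comparison gave no call among the members or among all 11704 genes tested (0%), by limma or by voom on recovered reads. At an unadjusted p under 0.05, 2 of 36 members passed, Lars2 (above) and Yars2 (tyrosine), where 13.9% of all genes did. Yars2 averaged 14.3 ± 1.19 TPM in old muscle and 17.2 ± 0.416 TPM in young muscle (SD, n = 3 each; log2 difference -0.25, unadjusted p = 0.0309), without overlap. Iars, Mars, Nars and Tars lay higher in each old library than in each young library, and Lars2 too, where 21.7% of all genes did not overlap, 18.7% higher and 2.92% lower in old muscle. Nars held 143.1, 150.8 and 142.2 TPM in old muscle and 137.6, 137.9 and 116.0 TPM in young muscle. The median log2 difference was 0.07 for cytosolic members, but -0.04 with median-of-ratios scaling, and -0.02 for mitochondrial members, but 0.02 with TPM as deposited, against 0.11 for all genes. Above 0 lay 18 of 20 cytosolic and 6 of 16 mitochondrial members, and 74.6% of all genes.

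In old muscle Gars held 62.1, 69.5 and 75.7 TPM and in young muscle 66.7, 58.6 and 60.8 TPM. Kars held 126.7, 131.1 and 142.9 TPM in old muscle and 130.2, 129.6 and 145.5 TPM in young muscle. Wars held 32.2, 36.6 and 36.3 TPM in old muscle and 32.4, 33.6 and 34.1 TPM in young muscle. These 3 overlapped between ages. Vars held 19.4, 20.02 and 32.0 TPM in old muscle and 20.4, 20.2 and 20.3 TPM in young muscle, so a single old library stood high.

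Aars held 38.6, 38.7 and 39.1 TPM in old muscle and 41.0, 37.3 and 35.5 TPM in young muscle, and Sars 56.4, 56.2 and 53.5 TPM in old muscle and 59.9, 52.0 and 53.6 TPM in young muscle. In both, the old libraries fell inside the young range. The unadjusted p of Iars, Nars and Lars, the smallest of the cytosolic class, were 0.0882, 0.104 and 0.132.

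The siRNA experiment targeted Cyr61, which measured 76.8 ± 24.45 TPM with Cyr61 siRNA and 114.2 ± 19.4 TPM with NT siRNA (SD, n = 4 each; exact permutation test, two-sided, p = 0.0571, where the smallest p that 4 against 4 allows is 0.0286). The limma log2 difference of Cyr61 was -0.60 (unadjusted p = 0.0277, adjusted p = 1). No gene was called among 12245 tested (0%), by limma or by voom, and 240 passed an unadjusted p under 0.05, or 1.96%. With replicate number added to the limma fit as a block, 691 passed, and again no gene was called. In the fit without that block, no synthetase passed the unadjusted bar. Cars (cysteine) was the single member without overlap, with 26.8 ± 1.11 TPM under Cyr61 siRNA and 24.1 ± 2.05 TPM under NT siRNA (SD, n = 4 each; unadjusted p = 0.0767), where 1.58% of all genes did not overlap, 1.23% higher and 0.343% lower with Cyr61 siRNA. The median log2 difference was 0.06 for the cytosolic and -0.03 for the mitochondrial class, but 0.03 for the mitochondrial class with TPM as deposited, against 0.02 over all genes. Above 0 lay 18 of 20 cytosolic and 4 of 16 mitochondrial members, and 58.4% of all genes.

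With Cyr61 siRNA, Gars held 71.3, 66.9, 73.0 and 62.7 TPM, against 68.2, 62.5, 65.5 and 60.8 TPM with NT siRNA. Kars held 153.7, 129.5, 175.0 and 124.4 TPM with Cyr61 siRNA and 136.3, 134.1, 145.2 and 132.1 TPM with NT siRNA. Vars held 30.2, 26.1, 32.4 and 17.9 TPM with Cyr61 siRNA and 23.4, 22.4, 22.6 and 18.7 TPM with NT siRNA. Each overlapped, and the SDs of Kars (23.4 TPM with Cyr61 siRNA, 5.79 TPM with NT siRNA) and Vars (6.38 TPM with Cyr61 siRNA, 2.13 TPM with NT siRNA) were wider with Cyr61 siRNA.

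Nars held 159.0, 161.8, 149.4 and 143.8 TPM with Cyr61 siRNA and 148.7, 141.0, 135.5 and 144.2 TPM with NT siRNA. Aars held 36.4, 43.5, 35.2 and 36.2 TPM with Cyr61 siRNA and 36.4, 36.3, 35.3 and 35.99 TPM with NT siRNA, so the library Cyr61 siRNA 2 alone stood out. Sars held 59.7, 56.3, 53.0 and 51.8 TPM with Cyr61 siRNA and 58.5, 49.8, 52.4 and 50.7 TPM with NT siRNA, and Wars 30.4, 31.3, 32.9 and 30.4 TPM with Cyr61 siRNA and 31.5, 29.2, 31.0 and 36.4 TPM with NT siRNA. Levels of these genes overlapped.

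**Figure D4:**
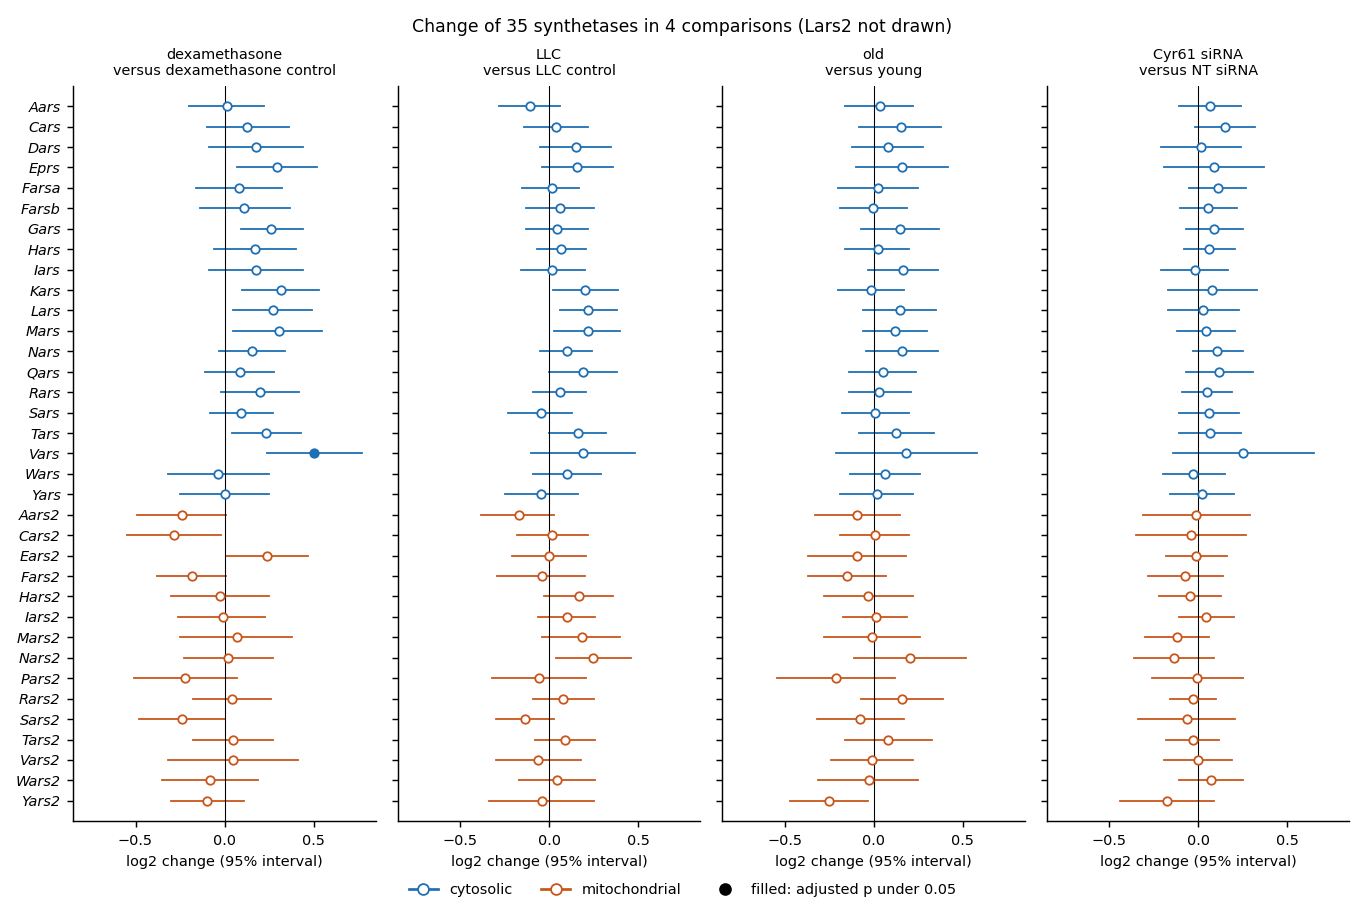
Log2 change of 35 synthetases with 95% intervals from limma in 4 comparisons, blue for cytosolic and orange for mitochondrial members; Lars2 is not drawn because its interval runs from -2.59 to 2.12 after dexamethasone. The single filled point is Vars after dexamethasone, and 19 of 20 cytosolic members lie right of 0 there.

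Whether members responded differently to dexamethasone, LLC and age was tested as a difference of responses in a fit of 22 libraries. No member was called in any of the 3 contrasts, where 5.64%, 0.126% and 2.63% of 13484 genes were called for LLC minus dexamethasone, LLC minus old and dexamethasone minus old. With TPM as deposited, LLC minus dexamethasone called 135 genes higher and 3281 lower, in place of 326 and 435, and dexamethasone minus old 161 higher and 94 lower, in place of 98 and 257. For LLC minus dexamethasone, 1 cytosolic and 1 mitochondrial member had an unadjusted p under 0.05: Gars at -0.22 (95% interval -0.44 to 0.00, adjusted p = 0.262, limma) and Cars2 at 0.30 (95% interval 0.02 to 0.58, adjusted p = 0.213, limma). Vars came to -0.31 with an interval of -0.73 to 0.11, so its call after dexamethasone is not shown to be particular to that treatment. For dexamethasone minus old, Kars (0.33, adjusted p = 0.205) and Ears2 (0.33, adjusted p = 0.263) were smallest in p by limma, and for LLC minus old no member had an unadjusted p under 0.05. At that unadjusted threshold stood 18.8%, 10.4% and 13.3% of all genes in the 3 contrasts as listed. Voom on recovered reads also called no member.

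Taking each library as a whole, the cytosolic sum was 1157 ± 34.6 TPM after dexamethasone and 1004 ± 29.4 TPM in its control (SD, n = 4 each), without overlap. It was 1063 ± 55.7 TPM in LLC muscle and 987.4 ± 14.1 TPM in its control, also without overlap on this scale. Sums overlapped for old (1086 ± 44.1 TPM) and young (1024 ± 37.5 TPM; SD, n = 3 each) and for Cyr61 siRNA (1112 ± 71.5 TPM) and NT siRNA (1056 ± 36.3 TPM; SD, n = 4 each). The mitochondrial sum without Lars2 overlapped in all 4 comparisons, for example at 199.5 ± 16.4 TPM after dexamethasone and 213.2 ± 10.1 TPM in its control.

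A difference between the classes inside a library does not depend on a common scale factor, apart from the pseudocount. The mean log2(TPM + 1) of the cytosolic members minus that of the 15 mitochondrial members without Lars2 was 2.20, 2.01, 2.09 and 2.01 after dexamethasone and 1.84, 1.84, 1.91 and 1.76 in the control. All 4 treated libraries lay above all 4 controls, with means of 2.08 ± 0.09 and 1.84 ± 0.06 (SD). In LLC muscle the difference was 1.94 ± 0.13, against 1.88 ± 0.10 in its control, and the groups overlapped. It was 1.95 ± 0.06 in old and 1.84 ± 0.07 in young muscle, and 2.02 ± 0.11 with Cyr61 siRNA and 1.91 ± 0.05 with NT siRNA, with overlap in both. Computed without a pseudocount, the step after dexamethasone was 0.25 on the log2 scale, or 1.19-fold, and the groups again did not overlap. With Lars2 included the dexamethasone groups overlapped, at 1.69 ± 0.16 after dexamethasone and 1.44 ± 0.17 in the control.

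**Figure D5:**
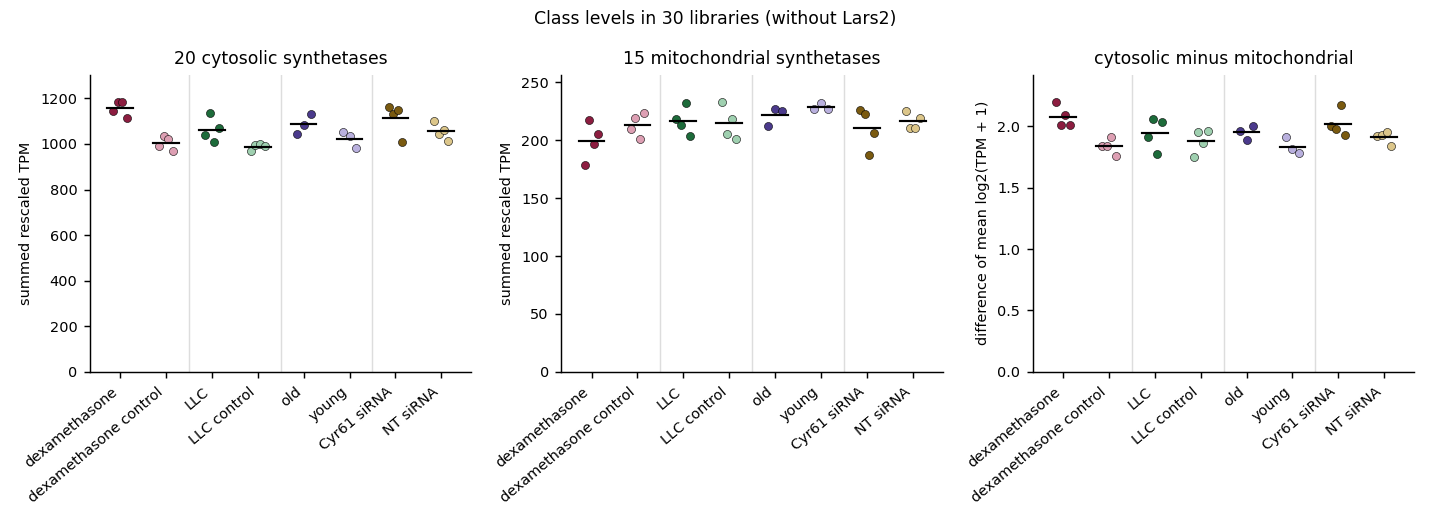
Summed rescaled TPM of 20 cytosolic synthetases (left), of 15 mitochondrial synthetases without Lars2 (middle), and the cytosolic minus mitochondrial difference of mean log2(TPM + 1) (right), with a point for each of 30 libraries and a black line for the group mean. In the right panel the dexamethasone libraries lie between 2.01 and 2.20, above their controls at 1.76 to 1.91.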

How the data were processed

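Tissue was homogenised in Trizol, and libraries were made with a TruSeq stranded mRNA kit, per the labels' protocols. The authors deposited TPM, with 1 column for each of 30 libraries and a total of 1000000 per column; the build was mm10 per the submitters' processing notes. Aligner, annotation, counting tool and strand setting were not given in the sources used here. Without a known strand setting, reads of overlapping genes cannot be told apart, as for Iars2 with Rab3gap2 (2034 bases), Hars with Hars2 (198 bases) and Mars with Ddit3 (68 bases). Aars shares 1326 bases with Exosc6 on the same strand, which no strand setting separates. The deposited TPM held no row named Exosc6. These base counts are of whole gene spans, introns included.

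The 37 rows starting with mt- were left out and TPM was rescaled to a total of 1000000. Values were log2(TPM + 1), on which fold changes are given, for genes that reached 1 TPM in a number of libraries no lower than the size of the smaller group (3 for differences of responses). Pairs of groups were fitted by limma 3.58.1 (R 4.3.3) with a trended variance, and the differences of responses in 1 fit of 22 libraries. A call needs a two-sided p under 0.05 after Benjamini-Hochberg adjustment over all genes in the fit. An exact permutation test was run for Cyr61 as well. No column was left unused.

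Whole reads were recovered from the TPM steps for all 23193 genes above 0 (100% within 0.05 read), 15820 with GENCODE M21 exon lengths and 7373 with a searched length. A searched length was the shortest that gave near-whole reads, so for those genes the fit within 0.05 read is no check on the recovery. limma voom on the recovered reads was added after the data were seen. Levels per transcript length and class values without Lars2 were added likewise. Reads carry no molecular identifiers. The labels do not link replicate numbers between groups. Promoters came from RefSeq, 26 members matched by symbol and 1 by gene ID. Members, lists and tests were chosen with earlier results of these data known. Named genes were all called members, and Gars, Kars, Wars, Aars, Nars and Sars in each library. Also to be named were the 3 smallest unadjusted p of a class without a call, and up to 3 called genes per context list. That part of the rule was followed only in some comparisons and lists. The code was tested on simulated data. Scripts used Python 3.11.15.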

Additional observations from a re-analysis of the deposited data

Results flagged for a closer look

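Single libraries far from the other 3 of their group were flagged in 14 of 216 cases tested, in members with 4 libraries a group, where chance flags about 1 in 20 groups. Lars2 in LLC control 2 measured 1264.7 TPM, against 49.2 to 66.9 TPM in the other 3. Cyr61 siRNA 2 stood high in Aars (43.5 TPM), Cars (28.4 TPM) and Tars (64.9 TPM). LLC 4 stood low in Vars2 (6.62 TPM) and Wars2 (3.28 TPM) and high in Rars2 (17.3 TPM). LLC 2 stood high in Sars (59.8 TPM). LLC control 1 stood high in Yars (25.0 TPM) and Vars2 (9.62 TPM), LLC control 2 low in Cars (23.5 TPM) and LLC control 4 low in Mars2 (2.54 TPM). After dexamethasone, Gars was low in library 4 (67.9 TPM) and Ears2 in library 1 (4.89 TPM), and both still lay above every control library.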

How the results depend on the processing

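The dexamethasone calls depend on scaling. With TPM as deposited, 16 cytosolic and 1 mitochondrial member (Ears2) were called higher, as 4290 genes were called higher and 180 lower in all, and LLC minus dexamethasone called 14 members. With median-of-ratios scaling 0 cytosolic members were called and 3 mitochondrial members lower, with 562 genes higher and 634 lower; the log2 change of the median gene was 0.33 as deposited, 0.01 with median-of-ratios scaling and 0.10 otherwise. In LLC the same settings gave 32 higher and 96 lower as deposited, and 190 higher and 165 lower by median-of-ratios. Without a filter 2 cytosolic members were called after dexamethasone, and with all 30 libraries in 1 fit 7 cytosolic and 1 mitochondrial, with 1721 genes called in all. Leaving out a library gave 0 to 2 cytosolic and 0 to 1 mitochondrial members called higher (Tars and Ears2 without dexamethasone library 1, Kars without dexamethasone library 2). Over all genes, leaving out a library gave 508 to 2463 calls after dexamethasone (1105 with all, 2463 without dexamethasone library 1, 508 to 564 without control library 1, 2 or 4) and as few as 140 in LLC (546 with all, 140 without LLC control library 3 or 4, 186 to 322 without LLC library 1 or 2 or LLC control 1 or 2, 302 with no filter). Old versus young gave 18 as deposited, 58 in the fit of 30 and 6 without old library 3. LLC minus dexamethasone (761) gave 448 with a filter of 5 TPM and 435 in the fit of 30, and 467 to 919 without a library (467 without dexamethasone control 2, 496 without LLC control 4). LLC minus old (17) gave 6 with that filter, as deposited or by voom, 8 in the fit of 30, 52 by median-of-ratios and 11 to 39 without a library (39 without LLC library 3, 11 without dexamethasone library 4, dexamethasone control 4 or LLC control 3). Dexamethasone minus old (355) gave 182 with that filter, 185 by voom, 211 in the fit of 30 and 206 to 370 without a library (206 to 231 without young library 3, old library 2 or 3, or dexamethasone control 1 or 2). The cause of these moves was not tested. The replicate block called 1609 genes after dexamethasone and again Vars alone among members (1 cytosolic); same-number correlations were over 0.1 in 3 of 4 pairs for dexamethasone (0.02 to 0.47), 3 of 4 for siRNA (0.03 to 0.42), 2 of 4 for LLC and 1 of 3 for age, so in no comparison in every pair, and the block was kept as an alternative. Pseudocounts, a filter of 5 TPM and voom changed no count of members. Members down to 83 reads limit small changes.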
